A study of Mus musculus with 2 samples.

Results

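The cells described here are T cells of the mouse adrenal gland with transcripts of Cd4 or Cd40lg and none of the CD8 chains, 260 of the 1266 T cells and of the 6319 barcodes that passed the filters. scRNA-seq had been run on adrenal CD45+ DAPI- cells sorted by flow cytometry from female and male C57BL/6 mice of 7 weeks, with 1 library per sex. No treatment or allele is named for either group. The number of animals behind each library is not given in the sources used here, and values of a library carry counting error only. The cells were chosen on raw UMI (unique molecular identifier) counts: at least 2 UMIs of Cd3d, Cd3e and Cd3g together, at least 1 of Cd4 and Cd40lg together, none of Cd8a, Cd8b1, Trdc or Cd79a, and at most 2 of C1qa, C1qb and C1qc together. This rule took 170 female and 90 male cells. They are called Cd4/Cd40lg T cells below, because the genes they expressed went in part beyond the helper T cell label.

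CD4 is the coreceptor that holds the T cell receptor of helper T cells on MHC class II, and CD40L, the product of Cd40lg, is the ligand by which helper T cells activate B cells, dendritic cells and macrophages. Naive helper T cells recirculate through lymph nodes with the help of CCR7 and the sphingosine-1-phosphate receptor S1PR1, whereas memory cells that stay in tissues often carry CXCR6, and regulatory T cells depend on the transcription factor FOXP3. Invariant natural killer T (NKT) cells, which see lipids on CD1d, can also express CD4 and CD40L. They are known for the transcription factor PLZF (Zbtb16), the receptor NK1.1 (Klrb1c, in C57BL/6 mice), a T cell receptor alpha chain joined with the Traj18 segment, and quick release of IL-4 and IFN-gamma.

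Cd4/Cd40lg T cells formed the same share of T cells in both libraries within counting error. They were 20.4% of 835 female T cells (exact binomial 95% interval 17.7 to 23.3) and 20.9% of 431 male T cells (17.1 to 25), a difference of -0.522 points (Newcombe 95% interval -5.36 to 4.06). T cells as a whole were 21.9% of female and 17.2% of male barcodes that passed, a difference of 4.65 points (2.65 to 6.61). Of the same barcodes Cd4/Cd40lg T cells were 4.45% and 3.60%, a difference of 0.857 points (-0.152 to 1.82). T cells with Cd8b1 and without Cd4 or Cd40lg, the class used for comparison, numbered 187 and 96. The ratio of Cd4/Cd40lg to Cd8b1 T cells was 0.909 in female (0.734 to 1.125) and 0.9375 in male glands (0.695 to 1.26). A further 368 female and 188 male T cells had no UMI of Cd4, Cd40lg, Cd8a, Cd8b1 or Trdc, so the 260 cells are those in which the transcripts were caught and not all helper T cells of the gland. The Cd4/Cd40lg T cells held 811569 female and 416762 male UMIs, with a median of 3677.5 per cell in female (1014 to 20455) and 4069 in male glands (1093 to 23622). Cd8b1 T cells were somewhat deeper, with medians of 4564 and 4619 UMIs. Among all deposited barcodes the female and male libraries shared 2 sequences, and none of the Cd4/Cd40lg T cells was one of these.

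Most of these cells were chosen through Cd40lg. In female glands 45 cells had Cd4 without Cd40lg, 30 had both and 95 had Cd40lg without Cd4, and in male glands the counts were 27, 13 and 50. The transcripts were sparse, with 93 and 53 UMIs of Cd4 and 195 and 92 of Cd40lg in female and male cells. Cd4 (ENSMUSG00000023274) lies at chr6:124864692-124888221 on the minus strand and Cd40lg (ENSMUSG00000031132) at chrX:57212143-57224042 on the plus strand (GENCODE vM21, GRCm38). As a description of the threshold, cells with 1 UMI of Cd4 and Cd40lg together numbered 106 and 54, and Cd28 was detected in 56.6% and 61.1% of them. Cells just outside, with no UMI of either, had Cd28 in 35.6% and 26.1%. At the other limits, 41 female and 26 male cells held 1 or 2 C1q UMIs and 17 and 8 T cells lay just outside with more, and 5 and 2 cells held 2 CD3 UMIs, against 4 and 2 outside with 1.

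The label was checked against Cd28 and Cxcr6, which the rule had not used. Cd28, the costimulatory receptor for B7 ligands, was detected in 104 of 170 female (61.2%) and 53 of 90 male cells (58.9%), against 39.6% and 40.6% of Cd8b1 T cells and 1.52% and 1.85% of B cells. The B cells (Cd79a+) had median depths of 2320 and 1828 UMIs and show the level of free RNA. Cxcr6 was detected in 86 female (50.6%) and 53 male cells (58.9%), against 28.3% and 33.3% of Cd8b1 T cells. In the T cells without a UMI of any of the coreceptors it was detected in 43.5% and 50%, so that Cxcr6 does not set the Cd4/Cd40lg T cells clearly apart from these. The constant region of the T cell receptor alpha chain, Trac, was detected in 144 and 81 cells, and Zbtb7b, which encodes the CD4 lineage factor ThPOK, in 31 and 15 cells against 4 and 3 Cd8b1 T cells. Cd28 and Zbtb7b were in keeping with the label in both libraries. The list of NKT cell genes went against it as a single name: 77 female cells (45.3%, exact binomial 95% interval 37.7 to 53.1) and 42 male cells (46.7%, 36.1 to 57.5) had a UMI of Klrb1c, Zbtb16 or Traj18.

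Traj18 is the joining segment of the invariant alpha chain and is shown because its detection is part of the NKT gene list. Conventional alpha chains can use it as well. It lies at chr14:54200777-54200842 on the plus strand (GENCODE vM21, GRCm38), upstream of Trac at chr14:54220521-54224206. Its germline sequence, 5′ to 3′, is given with the stretch around the conserved phenylalanine and glycine codons of J segments, found by a search of the coding strand, in capitals:
Traj18: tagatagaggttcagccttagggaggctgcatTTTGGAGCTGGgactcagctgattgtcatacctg
Of 60 annotated Traj genes 11 were detected in the Cd4/Cd40lg T cells. Traj18 was found in 44 cells, 26 female (15.3%) and 18 male (20%), and the next, Traj27, in 7. Traj18 UMIs were present in only 2 female and 5 male Cd8b1 T cells, and in no B cell. Traj18 was also found in 23 female and 7 male T cells that had no UMI of Cd4, Cd40lg, Cd8a, Cd8b1 or Trdc. The libraries were read from the 3′ end of transcripts, and whether these UMIs came from rearranged receptor transcripts was not tested. No UMI of Trav11, the variable segment used with Traj18, was found in the Cd4/Cd40lg T cells.

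Klrb1c (chr6:128778485-128789215, minus strand), which encodes the NK1.1 antigen, was expressed in 54 female (31.8%) and 29 male cells (32.2%), against 9 and 2 Cd8b1 T cells and 4% and 1.11% of B cells. Its share was higher still, 51.6% and 43.6%, in the T cells without a UMI of any of the coreceptors. Zbtb16 (chr9:48654297-48836222, minus strand), the gene of PLZF, was expressed in 27 female and 13 male cells, against 1 and no Cd8b1 T cell and 1 and no B cell. Cells with these genes thus stood out from both Cd8b1 T cells and B cells in each library. They also tended to be the cells with Cxcr6: 39 of 54 female Klrb1c cells (72.2%) had a Cxcr6 UMI against 40.5% of the others, and 27 of 29 male Klrb1c cells (93.1%) against 42.6%. Of the Zbtb16 cells, 21 of 27 and 11 of 13 had Cxcr6. Deeper cells show more genes of every kind, and the part of depth in these overlaps was not tested.

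Within the Cd4/Cd40lg T cells, 3 gates were drawn. Cells with Foxp3 were set apart first, then cells with Cxcr6, then cells with Ccr7, and the remainder had none of these. The Cxcr6 gate held 85 of 170 female cells (50%, exact binomial 95% interval 42.2 to 57.8) and 53 of 90 male cells (58.9%, 48.0 to 69.2), a difference of -8.89 points (-21.0 to 3.83). The Ccr7 gate held 26 female cells (15.3%, 10.2 to 21.6) and 11 male cells (12.2%, 6.26 to 20.8). It differed by 3.07 points (-6.48 to 11.2). The Foxp3 gate held 6 female cells (3.53%, 1.31 to 7.52) and 2 male cells (2.22%, 0.270 to 7.80). Each interval of the difference includes 0. The remaining 53 female (31.2%) and 24 male cells (26.7%) had none of the gate genes. Their median depths were 3299 and 1866.5 UMIs, against 4354 and 4818 in the Cxcr6 gate and 3084.5 and 4138 in the Ccr7 gate. After each cell was thinned to 1000 UMIs, Cxcr6 was detected in 24.1% of female and 22.2% of male cells, and among cells with at least 2000 UMIs the Cxcr6 gate differed by -16.9 points (-29.2 to -3.24), so the size and the sign of this difference moved with depth. Cxcr6 and Ccr7 were rarely seen in 1 cell. Of the cells with Cxcr6, 4 of 86 female cells (4.65%) and none of the 53 male cells also had Ccr7, against 32.1% and 32.4% of the cells without Cxcr6.

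**Figure D1:**
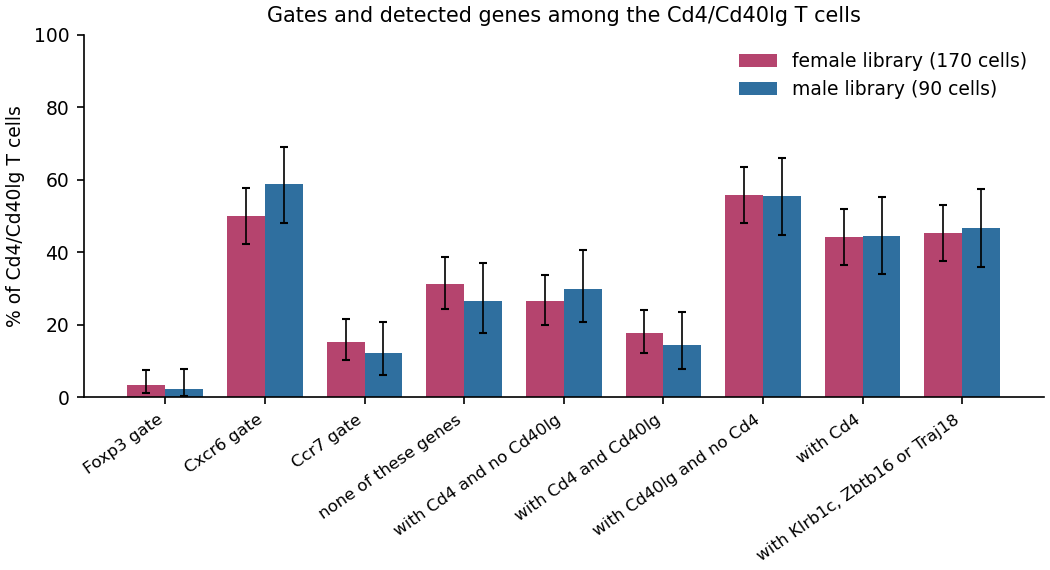
Share of the 170 female and 90 male Cd4/Cd40lg T cells, in percent, in each gate, in each combination of Cd4 and Cd40lg detection and with a UMI of Klrb1c, Zbtb16 or Traj18; bars are shares and error bars exact binomial 95% intervals, which cover counting error only. The intervals of female and male cells overlap for every class, and Cd40lg without Cd4 is found in 55.9% of female and 55.6% of male cells.

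Detection of these genes differed between cells chosen on Cd4 and on Cd40lg. The cells with Cd4 alone were shallower, with median depths of 3137 and 2611 UMIs, than those with Cd40lg alone, at 4066 and 4592.5, which moves detection of most genes toward the latter. Ccr7 was found mainly in cells with Cd4, and Klrb1c and the cytokine genes mainly in cells with Cd40lg alone. Ccr7 was detected in 14 of the 45 female cells with Cd4 alone and 10 of the 95 with Cd40lg alone, and in 7 of 27 and 2 of 50 male cells. Cxcr6 ran the other way, from 26.7% of female and 25.9% of male cells with Cd4 alone, through 46.7% and 69.2% of cells with both, to 63.2% and 74% of cells with Cd40lg alone. Klrb1c was detected in 22.2% of female and 11.1% of male cells with Cd4 alone and in 42.1% and 44% of cells with Cd40lg alone. Il4 was found in 3 and 2 cells with Cd4 alone against 23 and 6 with Cd40lg alone, and Ifng in 2 and none against 19 and 14. In both libraries Cxcr6, Klrb1c, Il4 and Ifng were thus more frequent with Cd40lg alone than with Cd4 alone, and Ccr7 less frequent, while cells with both had no common place in the order. After thinning to 1000 UMIs per cell, the female and male shares with Cxcr6 were 17.8% and 3.70% for Cd4 alone against 28.4% and 26% for Cd40lg alone, those with Klrb1c 11.1% and 3.70% against 20% and 16%, and those with Ccr7 22.2% and 11.1% against 6.32% and 4%. All 8 Foxp3 cells had a Cd4 UMI. Cd28 and Maf were spread over the classes, with Cd28 in 29 of 45 female and 12 of 27 male cells with Cd4 alone and in 54 of 95 and 30 of 50 cells with Cd40lg alone.

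**Figure D2:**
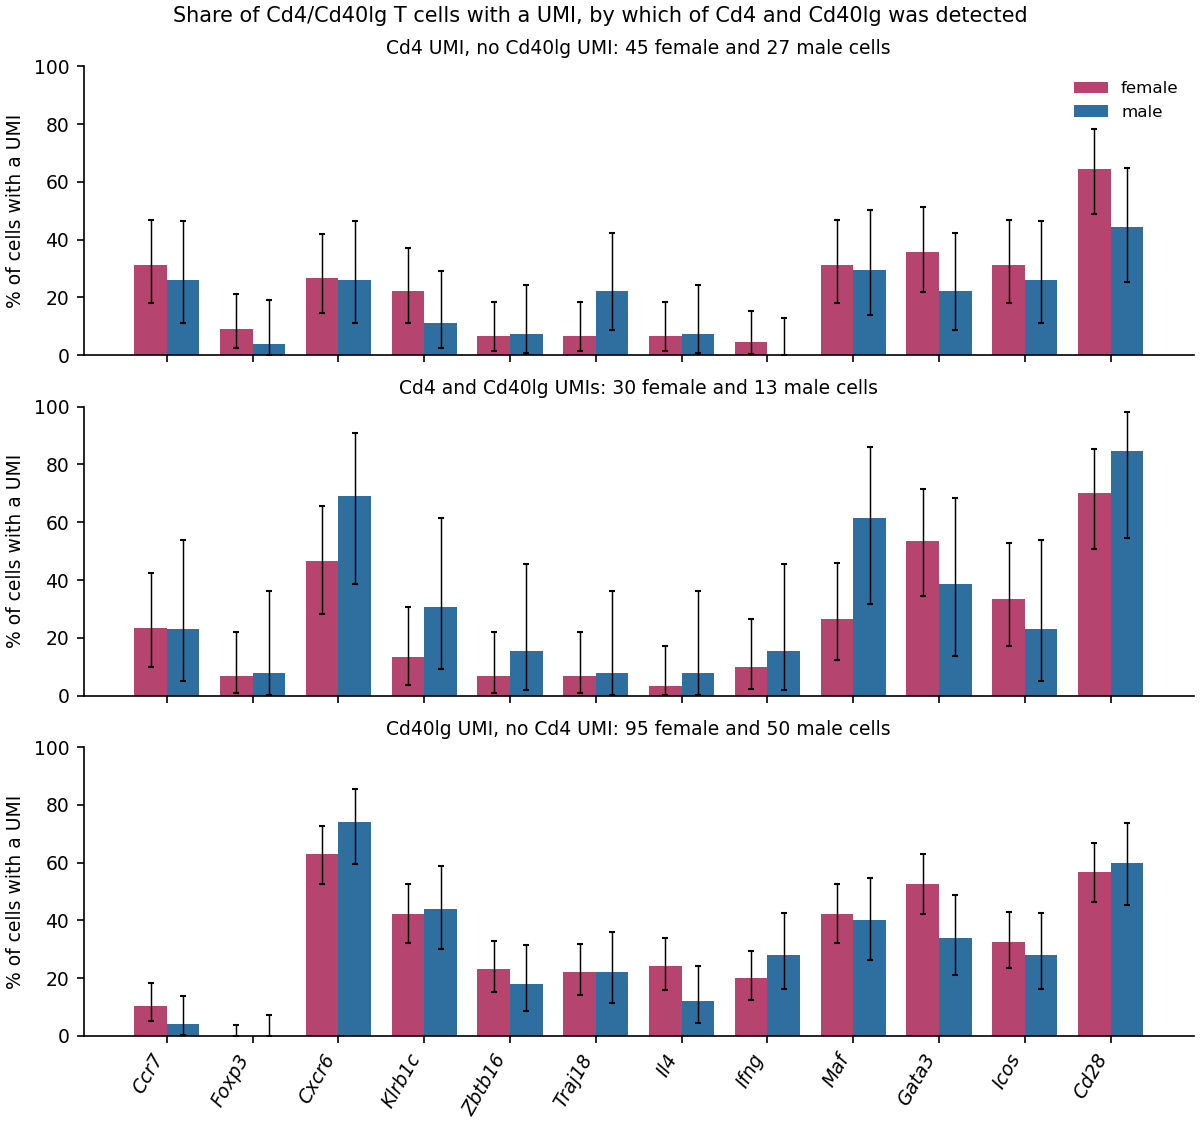
Percent of cells with at least 1 UMI of 12 genes in Cd4/Cd40lg T cells with Cd4 alone (45 female, 27 male), with both Cd4 and Cd40lg (30 and 13) and with Cd40lg alone (95 and 50), per library. Ccr7 is more frequent where Cd4 was detected, and Cxcr6, Klrb1c, Il4 and Ifng where Cd40lg was detected alone.

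The next question was how the Cd4/Cd40lg T cells differed from the CD8 T cells of the same glands. UMIs were summed per library and class, and the classes were compared with edgeR's quasi-likelihood test (two-sided, Benjamini-Hochberg over all genes tested) with the library as a block, that is on 2 pairs of sums. Because the pairs are a female and a male library, the spread between them includes any difference between sexes. The fit shares dispersion across genes, so that very small p-values do not measure the spread among animals. Of 6316 genes tested, 341 (5.4%) were higher and 431 (6.82%) lower in Cd4/Cd40lg T cells at an adjusted p below 0.05. Some of these, 114 of the 341 and 49 of the 431, were below the low-count cutoff of 15.8 CPM in both sums of the class where they are lower. They were tested only because they are high in the other class, and counts of list members below are a description where they hold such genes. CPM are UMIs scaled to the same total per sum. On the mean of the female and male log2 ratios of CPM plus 10, the median gene lay 0.22 higher. This is before the TMM normalization of the fit, and list medians below are on that scale. Fitted values are log2 fold changes with their standard errors (SE).

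**Figure D3:**
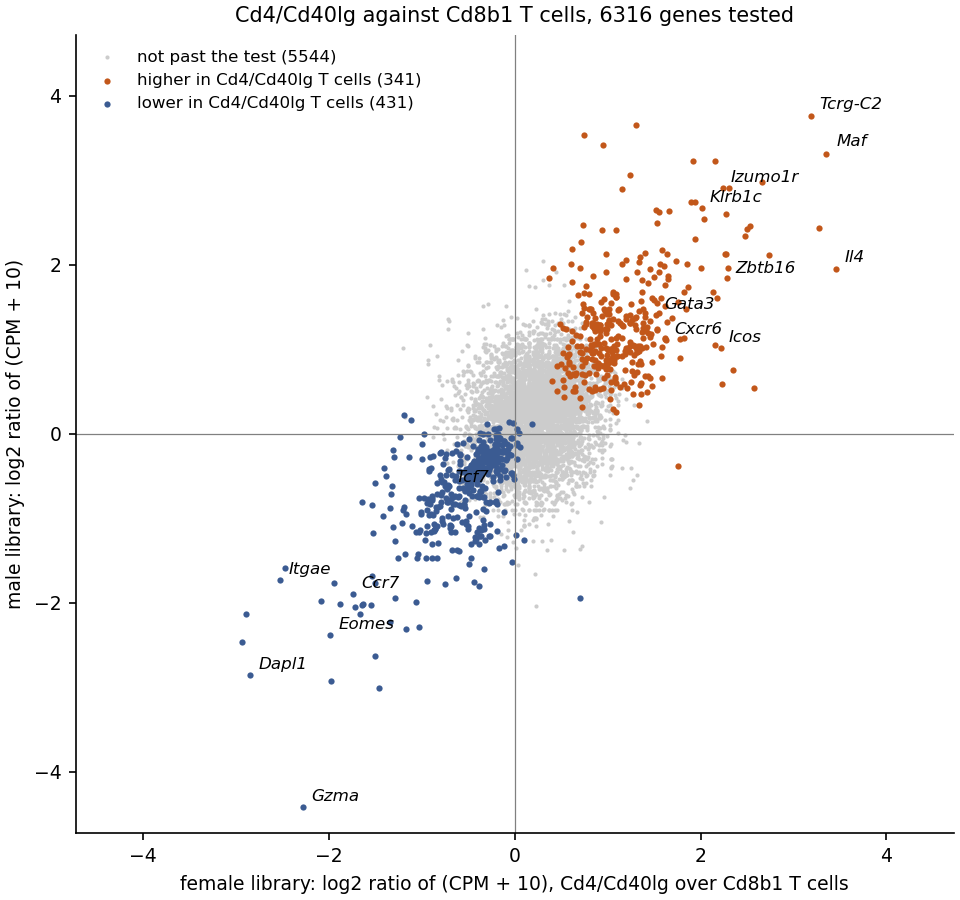
Log2 ratio of CPM plus 10 between Cd4/Cd40lg and Cd8b1 T cells for 6316 genes, female library on the x axis and male library on the y axis; colors mark the 341 genes higher and the 431 lower in the edgeR test and the 5544 that did not pass it. Maf, Klrb1c and Zbtb16 lie in the upper right, and Eomes, Itgae, Dapl1 and Gzma in the lower left.

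Of 12 listed transcription factors of T cell lineages 10 were tested, 5 were higher, 2 were lower and 3 did not pass the test, with a median of 1.11. With DESeq2 2 were higher and 2 lower. Zbtb7b, Zbtb16 and Eomes were tested only through the class where they are high. Maf (ENSMUSG00000055435), which encodes c-MAF, an activator of Il4, Il10 and Il21 in T cells, had 167 UMIs in female and 120 in male Cd4/Cd40lg T cells against 10 and 9 in Cd8b1 T cells. This is 205.8 against 11.1 CPM in female and 287.9 against 20.0 CPM in male cells (log2 fold change 3.76, SE 0.27, edgeR adjusted p 3.27e-41). Maf was detected in 36.5% of female and 40% of male cells. Zbtb7b was higher by 2.66 (SE 0.46), Gata3, a regulator of type 2 cytokines, by 1.40 (SE 0.24) and Rora by 2.02 (SE 0.32). Zbtb16 had 35 and 14 UMIs against 1 and 0 (log2 fold change 5.18, SE 0.73, edgeR adjusted p 5.07e-11). Tbx21, the gene of T-bet, was at 39 and 22 UMIs against 23 and 14 and did not pass the test (0.58, SE 0.34, edgeR adjusted p 0.345). Lower were Eomes, a factor of CD8 and NK cells, with 1 and 0 UMIs against 31 and 19 (-5.45, SE 0.70), and Runx3, which represses Cd4 in the CD8 lineage, with 100 and 58 against 211 and 126 (-1.23, SE 0.17). Bcl6, of follicular helper T cells, was found in 4 and 3 cells, and its partner marker Cxcr5 in none of the 260.

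Helper cytokine genes were rare per cell. Of 23 listed, 1 was used by the rule and 9 were tested, of which 5 were higher and 1 lower. All 6 passed the low-count filter only through the class where they are high, and without the filter 6 were higher and 1 lower of 15. With DESeq2 none of the 9 passed the test in either direction, and with Cd4 alone none of 4 tested was higher. The calls below are thus those of edgeR alone. Il4 (ENSMUSG00000000869, chr11:53602982-53618669, minus strand), the defining type 2 cytokine, was detected in 27 of 170 female (15.9%) and 9 of 90 male cells (10%), in no Cd8b1 T cell and in 1 B cell of each library. Its 81 and 12 UMIs against none in Cd8b1 T cells put it at least 34.1-fold higher, against a floor of 3 counts over both libraries. With a floor of 3 counts in 1 library the bound was 29.9-fold in the female and 4.32-fold in the male library, and without the cell with most Il4 UMIs it was 17.4-fold over both. Of the 81 female UMIs, 46 were in 1 cell of 13695 UMIs, and with DESeq2 the call was lost (adjusted p 0.999993). Ifng, the type 1 cytokine, had 48 and 35 UMIs in 24 and 16 cells against 12 and 6 UMIs (2.06, SE 0.37, edgeR adjusted p 7.48e-07). Il4 and Ifng were found together in 9 female and 3 male cells. With DESeq2 Ifng lost its call as well (adjusted p 0.146). Tnf was higher by 2.26 (SE 0.70). The TNF family ligands Tnfsf11, which encodes RANKL, and Tnfsf14, which encodes LIGHT, were higher by 3.89 (SE 0.95) and 3.39 (SE 0.65), and Tnfsf8, the ligand of CD30, was lower (-1.97, SE 0.40). Il2 UMIs were seen in 12 cells of each library and Csf2 UMIs in 3 and 8. No cell had a UMI of Il17a, Il5, Il10 or Areg, and Il13 was found in 1 cell. Without the cells with NKT genes 5 of the cytokine genes were tested and 1 was higher.

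The sequence before the start of Il4, which was higher together with Maf, is shown with short motifs known to be bound by NFAT and MAF factors. The 250 bases lie at chr11:53618666-53618915 (RefSeq, GRCm38.p6, minus strand), are given 5′ to 3′, and have GGAAAA (NFAT) and TGCTGA (MAF) in capitals on either strand, so that TTTTCC and TCAGCA are their reverse complements:
Il4 promoter: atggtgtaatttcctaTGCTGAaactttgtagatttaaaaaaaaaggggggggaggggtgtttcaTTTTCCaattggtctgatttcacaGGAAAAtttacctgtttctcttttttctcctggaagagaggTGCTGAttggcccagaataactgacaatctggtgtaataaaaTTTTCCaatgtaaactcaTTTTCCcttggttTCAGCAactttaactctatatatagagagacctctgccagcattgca
The window holds 4 matches of the NFAT motif, 3 of the MAF motif and none of the GATA motif AGATAA. At least 1 match is found in 20.4%, 16.1% and 9.99% of 32851 promoter windows of the same length, respectively. The second Il4 window and those of Ifng, Cxcr6 and Klrb1c hold none of the 3 motifs. Of 2 Foxp3 windows, one holds 1 match of the MAF motif and the other 1 each of the NFAT and GATA motifs. No match says only that these letters are not in those windows. A match is a description of the sequence.

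All 12 listed genes of the naive and recirculation program were lower in Cd4/Cd40lg than in Cd8b1 T cells, with a median of -1.001, and 8 of the 12 were lower with DESeq2. Klf2, the factor that drives S1pr1, had 356 and 146 CPM against 815 and 768 (log2 fold change -1.89, SE 0.12, edgeR adjusted p 6.99e-56). Ccr7 had 72.7 and 48.0 CPM against 267 and 207 (-2.22, SE 0.19), and S1pr1 132 and 96.0 against 247 and 222 (-1.28, SE 0.17). Of the factors of naive T cells, Lef1 was lower by 1.31 on the log2 scale (-1.31, SE 0.13) and Tcf7 had 234 and 185 CPM against 395 and 295 (-0.995, SE 0.14). In every one of these the female and male values were lower in Cd4/Cd40lg T cells. The calls depended on the choice of cells. When all cells with a UMI of Klrb1c, Zbtb16 or Traj18 were left out of both classes, an alternative added after seeing the data, 6 of the 12 remained lower, Tcf7 was at -0.06 (edgeR adjusted p 0.940), and S1pr1, at -0.35 (edgeR adjusted p 0.409), lost its call. This alternative uses fewer cells. Choosing on Cd4 alone left 7 of 12, with Tcf7 at -0.15 (edgeR adjusted p 0.778).

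Tissue and memory genes were mixed. Of 19, 9 were higher and 3 lower, with a median of 0.90. Zfp683, among the higher, and Itgae, among the lower, were tested only through the class where they are high. Without the low-count filter 8 of 19 were higher and 3 lower. With DESeq2 2 were higher and 2 lower. Cxcr6 (ENSMUSG00000048521, chr9:123806475-123811760, plus strand), the receptor for CXCL16, had 408 and 446 CPM against 126 and 202 (log2 fold change 1.18, SE 0.14, edgeR adjusted p 2.59e-14). Without the cells with NKT genes it was at 0.56 (SE 0.20, edgeR adjusted p 0.0615), and with Cd4 alone at 0.90, where it kept its call. Id2, a factor of effector and innate-like lymphocytes, had 1283 and 1557 CPM against 374 and 522 (1.41, SE 0.09), and Cd44, the hyaluronan receptor of memory T cells, 145 and 192 against 57.8 and 68.8 (1.12, SE 0.21). S100a4 was higher by 0.87 (SE 0.13). Itgae, the CD103 chain of intraepithelial and resident CD8 T cells, was nearly absent, with 1 UMI in each library against 49 and 14 (-4.93, SE 0.60), and Runx3 and Cd69 were the other genes that were lower. Itga1, the CD49a chain, had 39 and 39 UMIs against 20 and 19 and did not pass the test (0.85, SE 0.31, edgeR adjusted p 0.0508).

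Cytotoxic genes were higher and lower in turn. Of 17 tested, 9 were lower, 5 were higher, and the median was -0.33. Gzmk and Prf1, among the lower, were tested only through the Cd8b1 class. Without the low-count filter 11 of 19 were lower and 5 higher. With DESeq2 5 were lower and 2 higher. Gzma, a granzyme, had 78 and 4 UMIs against 455 and 185 in Cd8b1 T cells (log2 fold change -3.20, SE 0.17), and Ccl5, the chemokine RANTES, had 2297 and 2155 CPM against 3868 and 7396 (-1.52, SE 0.05). Nkg7, a granule protein, had 960 and 1037 against 1074 and 1465 CPM (-0.59, SE 0.08). Klrb1c went the other way, with 141 and 87 UMIs against 32 and 11 (2.28, SE 0.24, edgeR adjusted p 1.92e-19), as did Xcl1, the chemokine that attracts XCR1+ dendritic cells, with 311 and 243 against 113 and 43 (1.73, SE 0.15). Ccl5 was detected in 18.9% and 13.7% of B cells and Nkg7 in 6.67% and 4.07%, so that low values of either may be background.

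Of the 8 NKT genes 6 were tested and 4 were higher, and 3 with DESeq2. Zbtb16, Traj18 and Klra1 were tested only through the Cd4/Cd40lg class, and without the low-count filter 4 of 7 were higher. Besides Klrb1c and Zbtb16 these were Traj18, with 30 and 24 UMIs against 3 and 5 (log2 fold change 2.58, SE 0.46, edgeR adjusted p 7.89e-07), and Klra1, a Ly49 receptor, with 80 and 35 against 13 and 0 (3.03, SE 0.37). Klra1 shares sequence with other Ly49 genes and its count is uncertain. Slamf6 was lower (-0.96, SE 0.18). The gamma delta constant regions Tcrg-C1, Tcrg-C2 and Tcrg-C4 were all higher, and all were tested only through the Cd4/Cd40lg class. Tcrg-C2 had 99 and 103 UMIs in 32 and 21 cells against 4 and 4 UMIs (4.48, SE 0.35, edgeR adjusted p 5.09e-35). These 3 genes are near copies whose reads may be split among them. The rule had excluded Trdc. Of the other gamma delta markers summed, Blk was detected in female cells only, and Trdv4, Sox13 and Cd163l1 were at 0.

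Costimulatory receptors and genes of the regulatory list were among those that were higher. Icos, a relative of CD28, had 155 and 127 CPM against 25.6 and 57.7 (log2 fold change 1.69, SE 0.25, edgeR adjusted p 2.46e-10), and Cd28 had 272 and 257 against 146 and 135 (0.64, SE 0.16, edgeR adjusted p 0.00128). Izumo1r, which encodes folate receptor 4, had 94 and 41 UMIs against 15 and 2 (2.87, SE 0.33), and Tnfrsf18, the gene of GITR, had 135 and 98 against 44 and 20 (1.74, SE 0.22). Il2ra, the high-affinity chain of the IL-2 receptor, had 37 and 13 UMIs against 6 and 0 (2.89, SE 0.51), but was tested only through the Cd4/Cd40lg class. In all, 4 of 11 costimulatory and inhibitory receptors were higher and 3 lower (median 0.55), and with DESeq2 2 were higher and none lower. Of the 19 regulatory genes 7 were tested and 5 were higher (median 1.16; 2 with DESeq2), among them Ikzf2 by 0.68 (SE 0.24, edgeR adjusted p 0.0448). Without the cells with NKT genes Ikzf2 was at -0.04. Icos, Gata3, Maf and Cd28 kept their calls with Cd4 alone, at 1.41, 1.45, 3.33 and 0.90, and without the cells with NKT genes, at 1.42, 1.43, 3.33 and 0.91. With DESeq2 Maf kept its call, and Icos, Gata3 and Cd28 lost theirs (adjusted p 0.0918, 0.163 and 0.894).

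Among chemokine receptors, Ccr2, the receptor for CCL2, and Cxcr3, for interferon-induced chemokines, were higher together with Cxcr6, by 1.51 (SE 0.22) and 1.16 (SE 0.19). Of the 10 tested 5 were lower (median -0.40), and of these Cx3cr1 was tested only through the Cd8b1 class. With DESeq2 1 was higher and 3 were lower. Since the adrenal cortex releases glucocorticoids, genes known to respond to them were listed. Of 12 tested 3 were higher and 3 lower (median 0.40), and with DESeq2 1 and 2. Zbtb16, among the higher, was tested only through the Cd4/Cd40lg class. Fkbp5, a chaperone of the glucocorticoid receptor, had 67 and 20 UMIs against 23 and 6 (1.45, SE 0.34), and the phosphatase gene Dusp1 had 63 and 43 against 31 and 9 (1.30, SE 0.29). Tsc22d3, which encodes GILZ, had 157 and 130 CPM against 325 and 255 (-1.30, SE 0.16), and the kinase gene Sgk1 had 16 and 6 UMIs against 61 and 11 (-1.79, SE 0.38). The list had no common direction. Of 12 tested genes of the immediate early response and of cell dissociation 4 were higher and none lower (Egr1, Hsp90aa1, Hspa1b and Jund), with 1 higher under DESeq2 and none of 9 with Cd4 alone. Egr1 and Hspa1b were tested only through the Cd4/Cd40lg class, and 26 of the 33 male Hspa1b UMIs were in 1 cell. The list summed to 2045 and 2551 CPM against 1392 and 1603 in Cd8b1 T cells. Its part in the values of Fkbp5 and Dusp1 was not tested. The receptor gene itself, Nr3c1, was detected in 65 female and 31 male cells and its 91 and 54 UMIs against 74 and 22 did not pass the test (0.50, SE 0.22, edgeR adjusted p 0.146).

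Of 12 proliferation genes 11 were higher in Cd4/Cd40lg T cells, with a median of 1.74. Ccna2, Ccnb2, Cdk1 and Ube2c were tested only through the Cd4/Cd40lg class. Top2a, the DNA topoisomerase of dividing cells, had 110 and 83 UMIs against 44 and 3 (log2 fold change 1.97, SE 0.24), and Mki67 had 49 and 28 against 16 and 4 (1.83, SE 0.37). These UMIs came from few cells. At 10 or more UMIs of 10 of the genes (without Hmgb2 and Stmn1) there were 8 of 170 female cells (4.71%, exact binomial 95% interval 2.05 to 9.06) and 4 of 90 male cells (4.44%, 1.22 to 11), and they held 94.9% and 98.5% of the 513 and 333 UMIs. Their median depths were 14067.5 and 16355 UMIs. Among Cd8b1 T cells there were 3 of 187 (1.60%) and 1 of 96 (1.04%). With DESeq2 1 of the 12 genes kept its call, and without the cells with NKT genes 2 of 4 tested were higher.

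By the size of the fold change alone, the genes farthest above Cd8b1 T cells, besides Il4, Zbtb16, Maf, Tcrg-C2 and Tnfsf11, were Tmem273 (31 and 14 UMIs against none, at least 16.5-fold, or 11.4 and 5.04 by library), Ly6c1 (52 and 18 against 1 and 1), Mmp9 (23 and 36 against 0 and 2), Klra5, Mpzl3, Tex2 and Bmp7. Ly6c1 is a near copy of Ly6c2, which at 640 and 431 UMIs against 465 and 414 did not differ in the test (0.13, SE 0.09, edgeR adjusted p 0.495), so that its count is uncertain. Those farthest below, besides Eomes, Itgae and Gzma, were Gm43698 (none against 41 and 9 UMIs, at least 15.2-fold lower, or 12.3 and 2.78 by library), Ppic (at least 8.19-fold lower, or 5.11 and 3.08), Plek, Tmem108, Fam241a, Cx3cr1 (4 and 1 against 29 and 30), Dapl1 (48 and 22 against 439 and 200), Lcn4 and Tdrp. Klra5, Mpzl3, Tex2, Bmp7, Gm43698 and Plek, like Il4 and Tnfsf11, lost their calls with DESeq2. Cx3cr1, the fractalkine receptor, marks effector CD8 T cells.

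Cells of the Cxcr6 gate and of the Ccr7 gate were then compared in the same way, leaving out the gate genes. Of 2969 genes 80 (2.69%) were higher and 76 (2.56%) lower in the Cxcr6 gate. Of these, 52 of the 80 and 28 of the 76 were below the low-count cutoff of 49.8 CPM in both sums of the gate where they are lower, and so were tested only through the other gate. The Ccr7 gate is small, with 26 and 11 cells, and the gates are defined by detection of their genes. The same naive list, without Ccr7, was lower for 10 of 11 genes, and for 6 of 11 with DESeq2. S1pr1, Dapl1, Igfbp4 and Bach2, and Il6ra outside this list, were tested only through the Ccr7 gate. Klf2 had 59 and 7 UMIs in the Cxcr6 gate against 145 and 36 (log2 fold change -4.03, SE 0.33, edgeR adjusted p 8.47e-07), Tcf7 30 and 27 against 79 and 32 (-3.42, SE 0.28), S1pr1 19 and 9 against 45 and 16 (-3.57, SE 0.37) and Lef1 55 and 39 against 80 and 37 (-2.80, SE 0.26). Dapl1 had 1 and 0 UMIs against 19 and 16 (-7.19, SE 0.81), Il6ra 4 and 0 against 24 and 10 (-5.46, SE 0.72) and Igfbp4 10 and 5 against 35 and 11 (-4.02, SE 0.44). The other genes farthest below were Nsg2, Actn1, Fam169b, Il6st, Cmah and St6gal1, of which Actn1 kept its call with DESeq2. Klf2, Tcf7 and Lef1 were thus lower in CPM in the Cxcr6 gate in both libraries.

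Higher in the Cxcr6 gate were 6 of 14 tissue and memory genes, with 1 lower, and 11 of 12 cytotoxic genes. With DESeq2 these were 2 of 14 and 4 of 12. Of the 11 cytotoxic genes 9, and Cd44 and Itga1 of the tissue genes, were tested only through the Cxcr6 gate, where they are high, so that these counts are a description. Without the low-count filter 8 of 18 tissue and 12 of 18 cytotoxic genes were higher. Id2 had 774 and 532 UMIs against 11 and 1 (log2 fold change 4.34, SE 0.40, edgeR adjusted p 2.42e-06), Nkg7 598 and 375 against 1 and 5 (4.77, SE 0.50), Ccl5 1343 and 739 against 9 and 9 (4.29, SE 0.39) and Ly6c2 461 and 381 against 1 and 1 (6.14, SE 0.50). Of the chemokine receptors Ccr2 (5.09, SE 0.74), Cxcr3 (2.23, SE 0.44) and Ccr9 were higher. Maf, with 115 and 103 UMIs against 1 and 2 (3.60, SE 0.56), was the helper factor that was called, though Maf, like Ccr2, Ccr9 and Ly6c2, was tested only through the Cxcr6 gate, and with DESeq2 no helper factor of 6 was called. Rora was at 1.98 (SE 0.61, edgeR adjusted p 0.0715) and Gata3 at 0.54 (SE 0.47, edgeR adjusted p 0.650). Cd69, a marker of recent activation and of residence, was lower, with 59 and 31 UMIs against 65 and 9 (-1.99, SE 0.34), and so was Slamf6 (-2.94, SE 0.44). The 12 genes with the highest fold changes had no UMI in the Ccr7 gate. Of these, Klrk1 alone kept its call with DESeq2. Fgl2, which encodes a secreted and membrane fibrinogen-like protein, had 132 and 103 UMIs, at least 15.9-fold higher against a floor of 3 counts over both libraries, and Klrb1c had 102 and 79 (at least 12.3-fold). By library the bounds were 10.1 and 5.61 for Fgl2 and 7.78 and 4.30 for Klrb1c. The others were Klrk1, Tcrg-C2, Cd160, Serpina3g, Klrc1, Klrc2, Tcrg-C1, Bcl2a1d, Tcrg-C4 and Podnl1. Itga1 had 33 and 34 UMIs against none (at least 4.54-fold, or 2.52 and 1.85 by library). Ifng, with 25 and 17 against none, did not pass the test (edgeR adjusted p 0.0729). When the cells with NKT genes were left out, 9 of 10 naive genes were lower and 6 of 12 tissue and 4 of 4 cytotoxic genes higher, with Id2 at 4.29, Nkg7 at 4.73, Maf at 3.40 and Lef1 at -3.15.

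**Figure D4:**
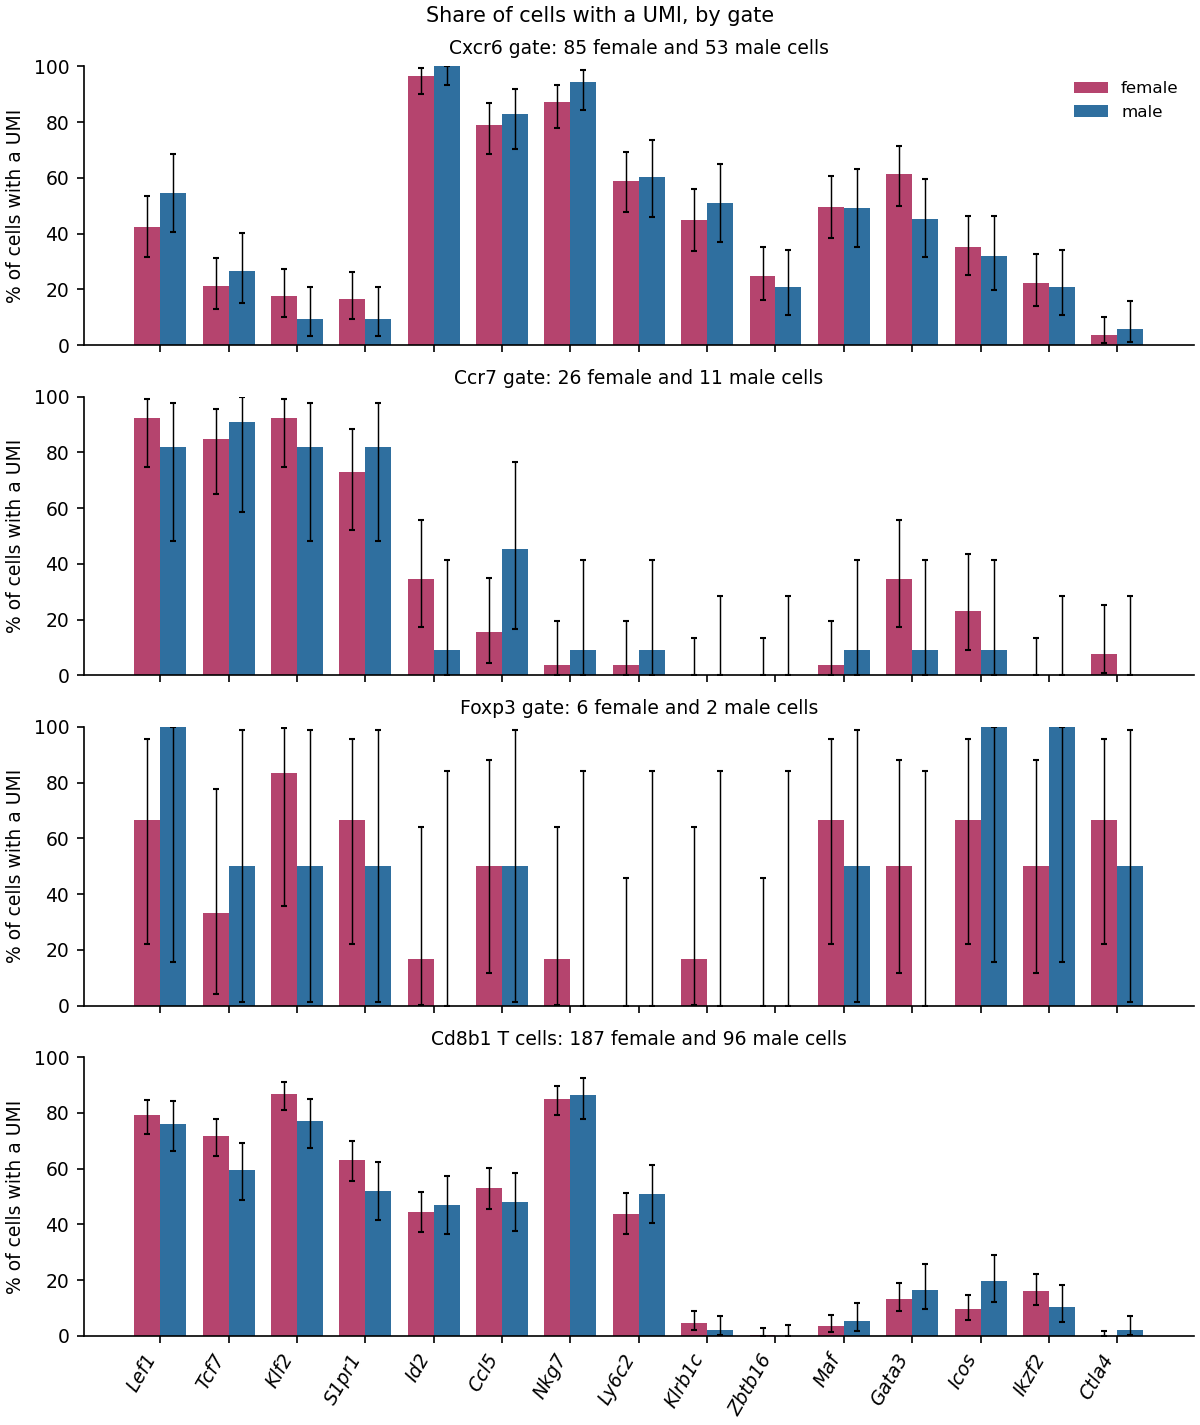
Percent of cells with at least 1 UMI of 15 genes in the Cxcr6 gate (85 female and 53 male cells), the Ccr7 gate (26 and 11), the Foxp3 gate (6 and 2) and in Cd8b1 T cells (187 and 96), per library. Lef1, Tcf7, Klf2 and S1pr1 are more frequent in the Ccr7 gate and in Cd8b1 T cells than in the Cxcr6 gate, and Id2, Ccl5, Nkg7, Ly6c2 and Klrb1c are more frequent in the Cxcr6 gate than in the Ccr7 gate.

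Foxp3 (ENSMUSG00000039521, chrX:7573644-7595245, plus strand) was found in only 8 cells, with depths of 1514 to 10896 UMIs, and no B cell had a UMI. Of these 8 cells 5 had a UMI of Ctla4, the inhibitory receptor of regulatory T cells, 5 of Ikzf2, the gene of Helios, 3 of Tnfrsf4, the gene of OX40, 2 of Il2ra, 6 of Tnfrsf18, 6 of Izumo1r and 5 of Nt5e, the ectoenzyme CD73. At least 1 of Il2ra, Ctla4, Ikzf2 and Tnfrsf4 was found in 7 of the 8. Of the 8 Foxp3 cells, Ccr7 was found in 2, Cxcr6 in 1, Klrb1c in 1 and Cd40lg in 3. A further 6 female and 2 male T cells without Cd4 or Cd40lg UMIs had Foxp3 and were outside the rule.

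Compared with all other Cd4/Cd40lg T cells, the Foxp3 cells were higher for 8 (0.242%) and lower for 10 (0.302%) of 3306 genes. Ikzf2 had 31 and 13 UMIs in the 6 and 2 cells against 62 and 23 in all others (log2 fold change 3.56, SE 0.50, edgeR adjusted p 1.87e-09). Of these, 21 of the 31 female UMIs were in 1 cell of 10896 UMIs, which also held 10 UMIs of Xcl1, 5 of Cxcr6 and 4 of Klrb1c, and 12 of the 13 male UMIs were in 1 cell of 3022 UMIs. Without those cells Ikzf2 was at 470 and 123 CPM in the Foxp3 cells against 79.5 and 56.7 CPM in the others, on 10 and 1 UMIs. Ctla4 had 7 and 1 UMIs against 9 and 3 (3.81, SE 0.41, edgeR adjusted p 7.09e-04), and Tnfrsf4 had 4 and 3 against 1 and 8 (4.13, SE 0.38, edgeR adjusted p 7.54e-04). Of the Tnfrsf4 UMIs, 3 of the 4 female and all 3 male ones were in 1 cell each. Without those cells Tnfrsf4 was at 36.9 and 0 CPM in the Foxp3 cells against 1.28 and 19.7 CPM in the others. Ctla4, without the cell with most of its UMIs in each library, was at 188 and 0 CPM against 11.5 and 7.40 CPM. Male Foxp3 cells were thus not higher for either gene without 1 cell. Ikzf2, Ctla4 and Tnfrsf4 were the 3 genes of the regulatory list that were higher, of 7 tested. Ctla4 and Tnfrsf4 were tested only because they are high in the Foxp3 cells, being below the low-count cutoff of 45.7 CPM in the others. Without the filter 1 of 14 regulatory genes, Ikzf2, was higher, and both lost their calls (edgeR adjusted p 0.949). Cplane1, Rasa3, Gm8369, Ifi27l2a (1.36, SE 0.31) and S100a10 (1.12, SE 0.29) were the other 5. Lower were Id2, with 5 and 0 UMIs against 1036 and 649 (-3.98, SE 0.51), Ly6c2, with none against 640 and 431 (at least 13.1-fold lower, or 8.81 and 3.95 by library), Plac8, Trbc1, Tuba1b, Ly6a, Ptma, Rps25, Sh3bgrl3 and Rps29. Ly6c2 and Plac8 were tested only through the other cells. With DESeq2 on all Foxp3 cells, Ikzf2, Tnfrsf4 and Id2 kept their calls, and the others named here, Ctla4 and Ly6c2 among them, lost theirs. With 2 male cells, these sums rest on very few cells.

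Finally, female and male Cd4/Cd40lg T cells were set side by side. With 1 library per sex there is no test, and sex and library cannot be told apart. Of 3332 genes with at least 50 UMIs over both libraries, 52 (1.56%) were more than 2-fold higher and 31 (0.93%) more than 2-fold lower in female cells, and the median log2 ratio of CPM was -0.006. Across genes, which are not independent replicates, the Pearson correlation of log2 (CPM plus 10) was 0.964. Il7r, the IL-7 receptor chain on which naive and memory T cells depend, had 434 UMIs in 96 female cells and 82 in 36 male cells, a ratio of CPM of 2.72 (95% conditional binomial interval 2.14 to 3.48), and in Cd8b1 T cells it was at 702 and 500 CPM. Socs2, an inhibitor of cytokine signalling, was lower in female cells, with 66 UMIs in 40 cells against 80 in 33 (0.424, 0.301 to 0.594). Trib2 had 46 UMIs in 33 cells against 5 in 5 (4.72), and Anxa1 had 36 in 26 against 51 in 22 (0.362). The 5 cells with most UMIs of a gene held 21.7% of female and 30.5% of male Il7r UMIs and 27.3% and 35% of Socs2 UMIs. They held 33.3% and 45.1% of Anxa1 UMIs and 23.9% of female Trib2 UMIs. Several other genes were held in part by few cells. Gzma had 78 against 4 UMIs (10.0, 3.76 to 37.7), of which 70.5% of the female UMIs were in 5 cells, and it was at 7508 and 6018 CPM in NK cells and at 489 and 130 CPM in B cells. Gzma in B cells was thus also higher in the female library. Whether it is free RNA or comes from mixed barcodes, and its part in the ratio, was not tested. Ccl4 had 97 against 13 UMIs, with 90 of the 97 in 1 cell. Il4 had 81 against 12 (3.47, 1.88 to 6.98), with 46 of the 81 in 1 cell, so that this ratio rests in large part on that cell. Isg15 had 68 against 9 (3.88), with 67.6% of the female UMIs in 5 cells. On the male side Ccl1 had 206 UMIs against none, all in 1 cell, and Hspa1b had 33 against 21 (0.327), with 26 in 1 cell. Mmp9 had 36 against 23 (0.328) and Icam1 29 against 21 (0.372).

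**Figure D5:**
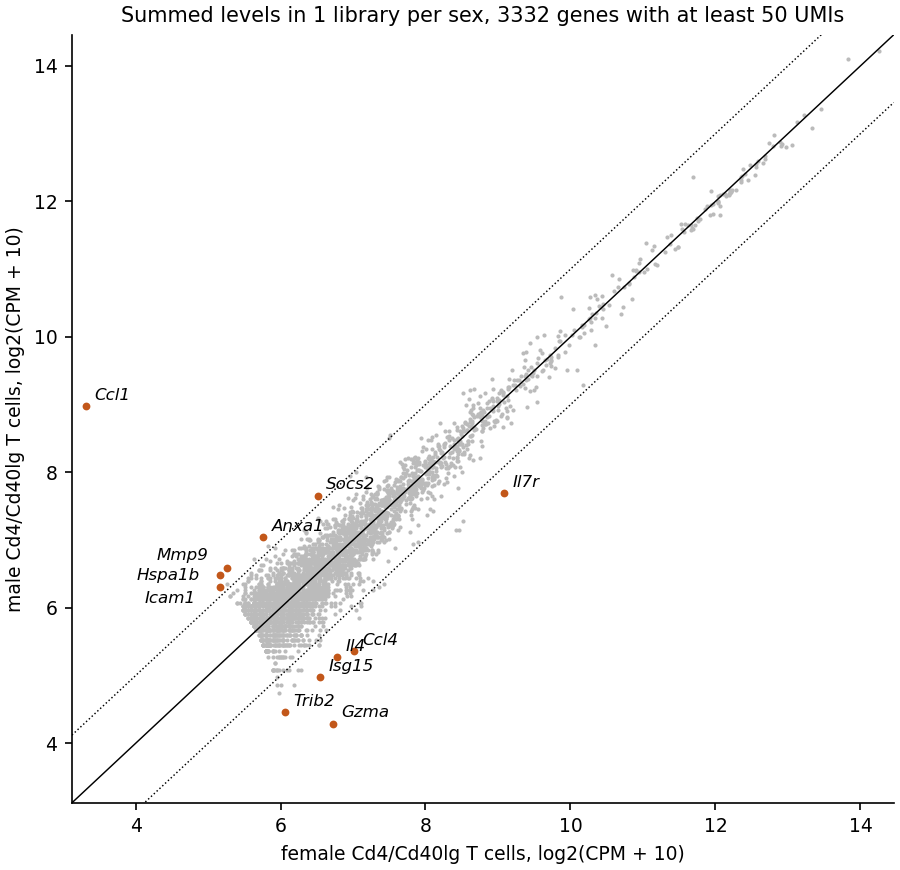
Log2 (CPM plus 10) of 3332 genes in female (x axis) and male (y axis) Cd4/Cd40lg T cells, 1 library per sex, with the line of equality, dotted lines at a 2-fold ratio and the 12 named genes marked. The Pearson correlation across genes is 0.964, and 52 genes lie more than 2-fold higher and 31 more than 2-fold lower in female cells.

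Lists of genes of other cell types gave low sums for some types and higher ones for others. The summed level of 7 macrophage genes was 328 CPM in female and 274 CPM in male cells, against 42278 and 28318 CPM in macrophages with C1q transcripts. The B cell list summed to 197 and 180 CPM and the adrenal cortical list to 56.7 and 69.6 CPM. The rule had limited C1q and excluded Cd79a, so that low macrophage and B cell sums were in part set by it. The chromaffin cell list was at 4.93 CPM in female and 0 in male cells. The NKT list summed to 536 and 506 CPM, against 290 and 229 CPM in Cd8b1 T cells, 1272 and 1108 CPM in T cells with Trdc and 1603 and 1406 CPM in NK cells. The NK cell list summed to 726 and 552 CPM against 479 and 677 CPM in Cd8b1 T cells, with 11542 and 11170 CPM in NK cells. It was at 1086 and 674 CPM in B cells, 7556 and 6779 CPM in macrophages with C1q transcripts and 7543 and 7382 CPM in T cells with Trdc. The monocyte list, which holds Ly6c2, Plac8 and Ccr2, was at 1396 and 1404 CPM against 982 and 1257 CPM in Cd8b1 T cells and 1093 and 1066 CPM in NK cells. In B cells the monocyte list was at 2621 and 2059 CPM. The dendritic cell list was at 771 and 415 CPM against 396 and 384 CPM. The gamma delta list was at 277 and 420 CPM against 21.1 and 17.8 CPM, nearly all of it from the Tcrg constant regions, and at 472 and 896 CPM in T cells with Trdc. The list of type 2 innate lymphoid cells, which holds Gata3 and Cxcr6, was at 587 and 588 CPM against 175 and 244 CPM, with 275 and 524 CPM in T cells with Trdc, and 4 of its 10 genes, among them Il5 and Areg, were at 0. The part of cells of these types in the results was not tested.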

How the data were processed

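The authors sorted CD45+ DAPI- adrenal cells, made 10x 3′ libraries, aligned and counted them with Cell Ranger 4.0.0 and removed empty droplets with DropletUtils 1.4.3. They named Seurat 3.1.0 and mm10 in their processing notes. They deposited 1 matrix of raw UMI counts per library, with 3963 female and 2685 male barcodes.

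Here, barcodes with at least 200 genes and at most 15% mitochondrial UMIs were kept (3817 and 2502). The ceiling of 1.2% in the study's methods, read as a percent of UMIs, left 327 and 359, so that its scale is in doubt and it was used as an alternative. The kept barcodes held 16049803 and 9321581 UMIs (medians 3539 and 3021.5). No doublets were removed. As an alternative, the 126 female and 58 male barcodes with the highest Scrublet scores were left out, where Scrublet itself called 2 and 10. This took out 1 Cd4/Cd40lg T cell per library. After the data were seen, the gate for naive cells was set to Ccr7 alone, in place of the 2 genes planned, and 3 listed genes were left out, because they are not reported here. Members and gene lists were chosen with earlier results of these data known. Sums per library and class were tested with edgeR 4.0.16 (filterByExpr, TMM, glmQLFit) in R 4.3.3, adjusted over all tested genes other than those that chose the classes, and checked with DESeq2 1.42.0. The pairing comes from the design: both classes of a library are cells of the same animals. The spread between the 2 libraries is the only replicate error, and with 2 pairs a gene has little of its own. The fit shares dispersion across genes, so that very small p-values rest on that shared value and on UMI counts. They do not measure the spread among animals. The genes named by rule were the 12 highest and 12 lowest fold changes per comparison that passed the test in 1 direction in both libraries, and the 6 highest and 6 lowest female to male ratios, without genes that chose the classes or sex-linked genes. Members of the gene lists were described besides. Fold bounds use a floor of 3 counts over both libraries. Shares have exact binomial, differences Newcombe and ratios conditional binomial 95% intervals, which cover counting error only. Alternatives were the mitochondrial ceiling, the CD3 minimum, Cd4 alone, a depth minimum, doublet removal, no low-count filter, no block, DESeq2 and each library left out. Gene identifiers matched GENCODE vM21 for 32235 of 32285. Sums, tests and intervals were tested on simulated data with known changes.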

Additional observations from a re-analysis of the deposited data

How the results depend on the processing

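Under the settings run, the female minus male differences in the shares of the class and its gates stayed within the 95% interval of the value reported, with 1 exception. A mitochondrial ceiling of 1.2%, whose scale is in doubt because it removes most barcodes, left 3 of 29 female and 9 of 35 male T cells in the class, a difference of -15.4 points. Genes higher in Cd4/Cd40lg than in Cd8b1 T cells numbered 341, against 226 at a mitochondrial ceiling of 5% and 122 with Cd4 alone. They numbered 216 without the barcodes of highest Scrublet scores, which held 1 Cd4/Cd40lg T cell per library, and 200 with at least 2000 UMIs. With DESeq2 they numbered 38. Without cells with Klrb1c, Zbtb16 or Traj18, an alternative added after seeing the data, they numbered 108. Genes lower numbered 431, against 213 with Cd4 alone, 197 without those cells and 129 with DESeq2. Genes higher in the Cxcr6 than in the Ccr7 gate numbered 80, against 37 with at least 2000 UMIs and 10 with DESeq2. They numbered 111 at the 5% ceiling and 120 without the low-count filter. Genes lower numbered 76, against 165 at the 5% ceiling and 47 without the highest Scrublet scores. With at least 2000 UMIs 38 were lower, and with DESeq2 21. For the Foxp3 cells, the 8 genes higher became 3 without those cells, 2 with DESeq2 and 1 without the low-count filter, and the 10 lower became 6 at the 5% ceiling, 4 with Cd4 alone, 4 without those cells, 1 with DESeq2 and 4 without the filter. The fits with Cd4 alone, with a depth minimum and without the NKT gene cells use fewer cells, and the cause of the other changes was not tested. Genes over 2-fold higher in female cells went from 52 to 33 with Cd4 alone, 34 without the NKT gene cells and 14 at a minimum of 100 UMIs, and genes lower from 31 to 9, 9 and 6.

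Without the library block, which pairs the sums of one library, 185 genes were higher and 262 lower than in Cd8b1 T cells, and all 447 were also called with the block in the same direction. For the Foxp3 cells the fit without the block called 17 higher and 20 lower. All 167 DESeq2 calls against Cd8b1 T cells, 307 of 335 calls with Cd4 alone and 285 of 305 without the NKT gene cells were shared with the same sign, as were 24 of the 31 DESeq2 calls of the Cxcr6 gate. The named genes were chosen for 1 direction in both libraries, so that leaving out a library says nothing of their stability. Of 66, 39 lost their call with DESeq2. Of 65 tested without the highest Scrublet scores 2 lost it, and of 35 tested without the NKT gene cells 10 did. None of the genes tested in these settings changed direction. Differences in shares whose intervals include 0 changed sign: that of the class in T cells, -0.522 points, was 0.0663 at the 5% ceiling, 0.0547 with at least 2000 UMIs and 1.39 without the NKT gene cells, and that of the Cxcr6 gate, -8.89 points, was 1.90 with 1000 UMIs drawn per cell. With 260 cells, a gene seen in no cell may still be expressed below the depth reached.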

Other observations

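Single cells held much of some secreted-protein genes in the Cd4/Cd40lg T cells. All 206 Ccl1 UMIs were in 1 male cell of 5312 UMIs that also held 87 UMIs of Xcl1, 10 of Ccl4 and 4 of Cxcr6. In female cells 90 of 97 Ccl4 UMIs and 46 of 81 Il4 UMIs were each in 1 cell.

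Integrin genes divided between the classes, a group the text above does not describe. Of 10 tested, Itgal, Itgb1, Itgb2 and Itgb3 were higher and Itga4, Itga6 and Itgae lower in Cd4/Cd40lg than in Cd8b1 T cells (edgeR, adjusted p below 0.05). With DESeq2 none was higher and 1 lower, and Itgb3 and Itgae were tested only through the class where they are high. Of 15 cytokine receptor genes tested, Il2ra, Il2rb, Il12rb1 and Il12rb2 were higher and Il7r lower. With DESeq2 1 was higher and 1 lower, and with Cd4 alone and without the cells with NKT genes none of 11 and none of 12 was higher. Il2ra, Il12rb1 and Il12rb2 were tested only through the Cd4/Cd40lg class.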
